A study of Mus musculus with 32 samples.

Results

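A set of 3162 stretches of accessible chromatin was found in every migratory dendritic cell (DC) library of a floxed mouse cohort and in no library of its lymph-node-resident DC. These migratory-only regions made up 3.56% of the 88757 consensus regions on chromosomes 1 to 19 and covered 2373.773 kb in all. A consensus region was 100 bp or longer and under peaks of 3 or more of the 32 Omni-ATAC-seq libraries. It counted as called in a library that had a peak sharing 50% or more of its own length, or of the region's length, with it. The calls themselves chose the migratory-only regions (16 of 16 migratory and 0 of 12 resident libraries), so the contrast between migratory and resident cells is described here and not tested.

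The cells were sorted from skin-draining lymph nodes of mice. The resident subsets were cDC1 and cDC2, and the migratory subsets were migDC1, migDC2 and DN migDC. The floxed cohort carried floxed Ifngr1 alleles in both of its genotypes, CD11c-Cre-negative and CD11c-Cre-positive, with 3 libraries per genotype of each subset except migDC1, which had 2. A further 4 migDC2 libraries came from mice without floxed alleles, 2 from wild-type (WT) and 2 from IFNgr1-/- (germline knockout, KO) mice, and took no part in the choice. The ligand-binding chain of the interferon-γ receptor is the product of Ifngr1, and Cre under the CD11c promoter acts in DC and in other cells that express CD11c. The cells were compared to learn how this receptor bears on chromatin in maturing DC. Strain, age and sex were not given in the sources used here, and nothing states that replicates came from separate animals, so p-values cover the variation among these libraries, part or all of which may be technical. The peak lists hold no read counts, so depth is unknown and no counting error is given. Migratory floxed lists held 44263 to 73627 autosomal peaks, resident ones 37812 to 68217 and germline ones 32088 to 41759.

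Accessible regions that lie away from gene starts are largely enhancers, stretches that bind transcription factors and act on a gene at some distance, whereas promoters are often open in many cell types. DC that leave the skin pass through a maturation programme on the way to the node: they switch on the chemokine receptor CCR7, actin-bundling fascin, costimulatory ligands and a set of inhibitory ligands and T cell-attracting chemokines. Resident DC reach the node through the blood and include many cells that have not matured.

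Few migratory-only regions held an annotated gene start, and the sequences of those that did are shown first, because they are the stretches whose letters were in the reference tables used. RefSeq (GRCm38.p6, the coordinates of mm10) lists 31396 autosomal promoter windows of 300 bases, each from 250 bases before to 50 after a gene's start. Of these, 43 windows of 40 genes overlapped a migratory-only region by at least 150 bp. Il12a, which encodes the p35 subunit of interleukin-12, and Slamf1, which encodes a self-binding costimulatory receptor, are shown because they belong to the gene lists used here. The windows of Cxcl1, Stap2, Ccdc33 and Apol7c were chosen after their values were seen, for the strength of their region or for the motif they hold. Cxcl1 encodes a neutrophil-attracting chemokine and Stap2 a signalling adaptor. Sequences run 5′ to 3′ along the gene's strand, and capitals mark each match to a motif searched.
Cxcl1 promoter: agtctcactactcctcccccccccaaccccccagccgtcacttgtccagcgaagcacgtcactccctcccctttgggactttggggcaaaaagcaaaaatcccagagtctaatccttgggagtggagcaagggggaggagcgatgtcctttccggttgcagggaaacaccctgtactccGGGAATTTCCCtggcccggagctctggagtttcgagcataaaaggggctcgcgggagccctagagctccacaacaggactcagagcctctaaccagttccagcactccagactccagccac
Stap2 promoter: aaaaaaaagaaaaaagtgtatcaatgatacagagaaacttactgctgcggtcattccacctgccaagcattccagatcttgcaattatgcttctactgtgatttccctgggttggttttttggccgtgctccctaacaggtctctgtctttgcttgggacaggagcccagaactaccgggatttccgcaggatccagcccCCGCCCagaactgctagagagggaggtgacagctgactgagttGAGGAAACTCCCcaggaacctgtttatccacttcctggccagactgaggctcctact
Ccdc33 promoter: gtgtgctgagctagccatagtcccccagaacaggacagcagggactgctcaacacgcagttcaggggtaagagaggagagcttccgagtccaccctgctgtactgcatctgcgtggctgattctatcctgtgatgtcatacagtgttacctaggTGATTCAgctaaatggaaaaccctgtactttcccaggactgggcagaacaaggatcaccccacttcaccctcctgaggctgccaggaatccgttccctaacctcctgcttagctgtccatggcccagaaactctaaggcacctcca
Apol7c promoter: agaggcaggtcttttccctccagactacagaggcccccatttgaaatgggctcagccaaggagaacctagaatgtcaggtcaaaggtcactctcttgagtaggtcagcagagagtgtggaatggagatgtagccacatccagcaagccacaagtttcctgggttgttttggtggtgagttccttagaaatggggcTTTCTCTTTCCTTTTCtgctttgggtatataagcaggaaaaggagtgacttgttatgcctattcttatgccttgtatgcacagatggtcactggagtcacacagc
Il12a promoter: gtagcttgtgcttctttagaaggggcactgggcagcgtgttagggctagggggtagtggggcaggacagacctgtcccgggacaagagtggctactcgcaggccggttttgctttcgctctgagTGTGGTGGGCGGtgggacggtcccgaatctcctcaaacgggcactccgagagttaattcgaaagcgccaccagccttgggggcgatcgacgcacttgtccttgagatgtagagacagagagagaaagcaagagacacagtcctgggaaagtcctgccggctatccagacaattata
Slamf1 promoter: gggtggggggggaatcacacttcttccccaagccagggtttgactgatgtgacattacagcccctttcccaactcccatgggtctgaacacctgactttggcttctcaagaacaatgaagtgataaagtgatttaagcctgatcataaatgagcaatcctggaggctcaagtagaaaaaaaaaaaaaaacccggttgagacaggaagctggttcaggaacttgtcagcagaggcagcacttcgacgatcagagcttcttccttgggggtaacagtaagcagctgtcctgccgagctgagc
The Cxcl1 window (chr5:90890995-90891294, plus strand) holds overlapping NF-kB matches at bases 180 to 190 of the window, and its region had a median signal percentile of 82.2. This percentile ranks a peak's deposited signal among all peaks of its own list, with 100 for the strongest, and the median is over the 16 migratory libraries. A percentile depends on the length of its list, so percentiles of lists of unlike length are not on the same scale. The Stap2 window (chr17:56005557-56005856, minus strand, 83.4) holds an NF-kB match at bases 246 to 255, a PU.1 match that overlaps it and a GC box. The Ccdc33 window (chr9:58102176-58102475, minus strand, 89.3) holds 1 AP-1 match, and the Apol7c window (chr15:77533266-77533565, minus strand, 57.8) holds overlapping matches to the interferon-stimulated response element (ISRE). The Il12a window (chr3:68691174-68691473, plus strand, 43.4) holds a RUNX match followed directly by a GC box, and the Slamf1 window (chr1:171766882-171767181, plus strand, 41.9) holds none of the motifs searched.

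Over all 43 windows the NF-kB motif was found in 10 (23.3%), of 9 genes, against 4.57% of all promoter windows, 5.63% of windows in regions called in all 28 floxed libraries and 6.57% of 2328 windows in other regions called in 1 to 27 of them. The AP-1 motif TGANTCA was in 11.6% of the windows (all windows 7.84%), PU.1 GAGGAA in 32.6% (28.2%), RUNX TGTGGT in 25.6% (16.7%), the ISRE in 2.33% (3.46%), the STAT motif GAS TTCNNNGAA in 2.33% (8.35%) and the GC box GGGCGG in 25.6% (36.0%). Both strands were searched, and matches of different motifs may overlap. Windows in migratory-only regions had a median of 4 CpG and 51.7% G or C, against 7 and 53.0% of all windows and 22 and 62.0% of windows in regions called in all 28 libraries. Some windows are alternative starts of 1 gene and share most of their bases. A match is a string of letters, not evidence of binding, and these 43 windows hold few of the migratory-only regions.

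The number of regions fell off on both sides of the rule. A further 1009 regions missed a single migratory library and 670 missed 2, all with no resident call, while 395 were called in all 16 migratory libraries and in 1 resident one, and 348 in all 16 and in 2. The migratory-only regions had a median percentile of 54.9 and a median width of 690 bp. Those that missed 1 migratory library had 35.6 and 537 bp, and those with 1 resident call 56.9 and 735 bp. In the opposite pattern, called in all 12 resident and no migratory library, there were 79 regions. Peaks of resident libraries touched 9 of the migratory-only regions (0.285%) by at least 1 bp. The nearest resident peak lay within 1 kb of 500 regions (15.8%), at 1 to 10 kb from 1660 (52.5%), at 10 to 50 kb from 856 (27.1%) and farther from 137 (4.33%), with a median gap of 4682 bp. A region without a peak in a list may be closed there or lie under the threshold of that list.

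**Figure D1:**
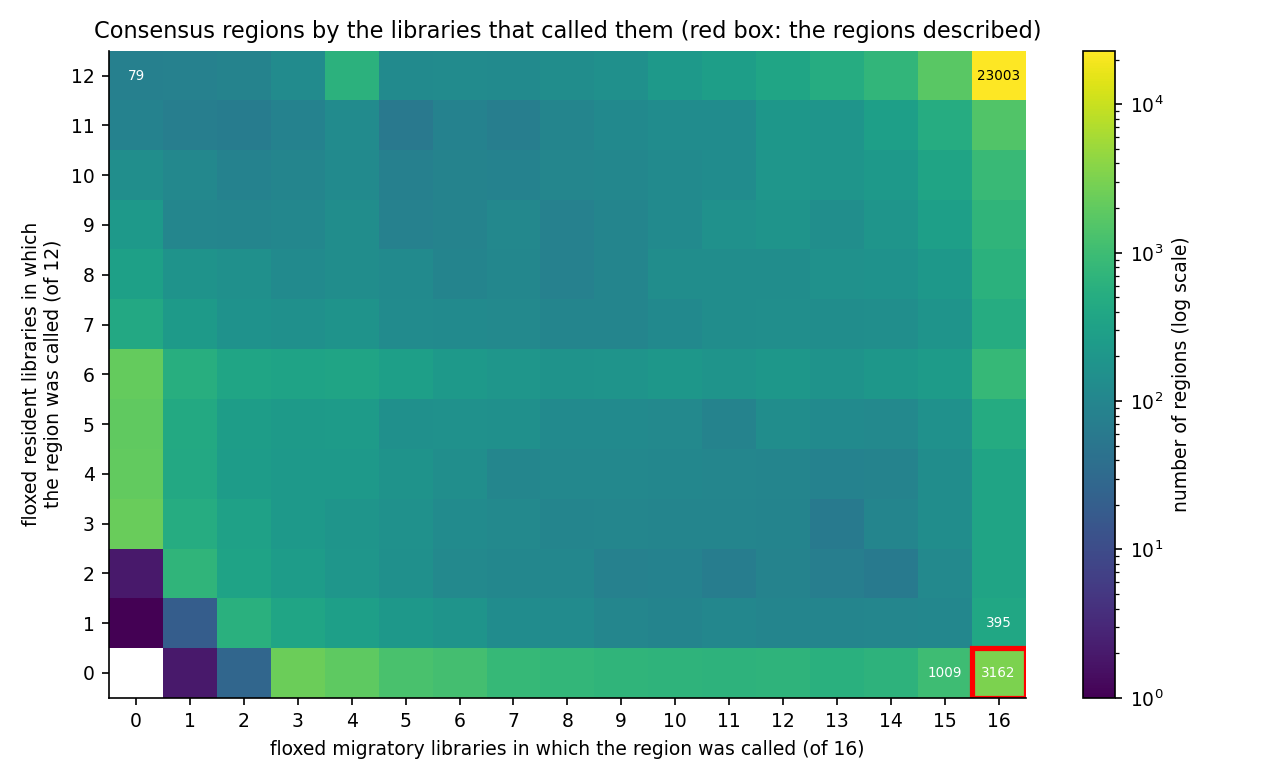
Number of consensus regions (colour, log scale) by the number of floxed migratory libraries (x axis, of 16) and resident libraries (y axis, of 12) in which they were called. The red box at 16 and 0 holds the 3162 migratory-only regions; 1009 regions lie beside it at 15 and 0, 395 above it at 16 and 1, and 79 in the opposite corner at 0 and 12.

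Migratory-only regions lay away from gene ends. Of the 3162 regions, 161 (5.09%) lay within 1 kb of an end of a protein-coding gene, 1665 (52.7%) in a gene body, 932 (29.5%) within 50 kb of a gene end (called distal) and 404 (12.8%) had no gene within that distance. Among all regions, 17.2% lay at gene ends, 46.5% in gene bodies, 26.9% were distal and 9.43% had no gene, and among the 23003 regions called in all 28 floxed libraries 42.2% lay at gene ends. A promoter window was touched by 1.68% of the migratory-only regions, 12.2% of all regions and 36.4% of those called in all 28. Low shares were not particular to the migratory-only regions. Of the 79 regions called in all resident and no migratory libraries, 8.86% lay at gene ends and 0% touched a promoter window. When the migratory-only regions were split by median percentile into 4 strength groups of equal size, 4.18% to 5.69% of each group lay at gene ends. Among regions called in all 16 migratory and at least 1 resident library (30032, called shared regions below), that share rose from 10.1% in the same range of percentiles as the weakest group to 47.9% in that of the strongest. Genes were assigned by distance alone, and the gene a region acts on may be another.

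**Figure D2:**
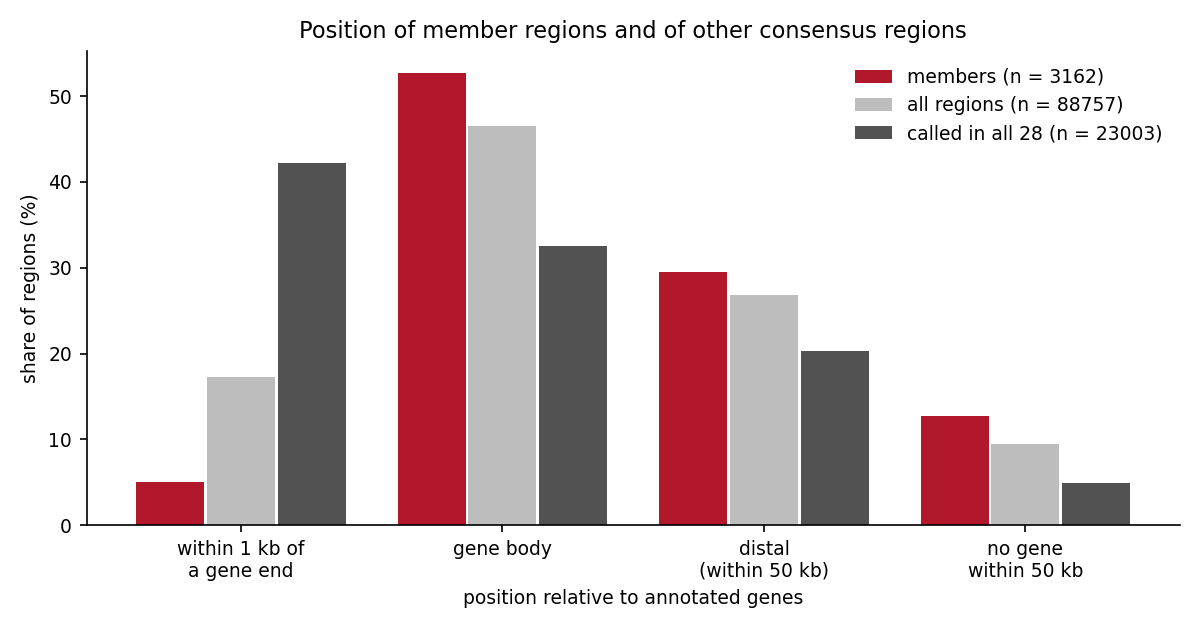
Share of regions (y axis, percent) in each position class (x axis) for migratory-only regions (members, n = 3162), all consensus regions (n = 88757) and regions called in all 28 floxed libraries (n = 23003). The share within 1 kb of a gene end was 5.09% for members, 17.2% for all regions and 42.2% for regions called in all 28.

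Migratory-only regions were spread over 1999 genes, 12.7% of the 15705 genes with any region. Of these genes 1543 had exactly 1, 456 had 2 or more, 156 had 3 or more and 34 had 5 or more. Atxn1, which encodes the nuclear protein ataxin-1, had the most, 15 of its 55 regions, followed by Ralgapa2, a GTPase-activating protein for Ral (11 of 28), Rad51b, a DNA repair factor (9 of 58), the transporter gene Slc22a23 (9 of 30), Ksr1, a scaffold of the MAP kinase cascade (8 of 36), the lipid raft gene Rftn1 (7 of 60), Dscaml1 (7 of 28), Clec16a (7 of 23), Slx4ip (7 of 18) and the semaphorin gene Sema6d (6 of 38). Within Atxn1 the 15 regions differed in strength, with median percentiles from 30.8 to 75.6, and 5 of them were called in all 4 germline migDC2 libraries. Over the whole set, 625 regions (19.8%) lay within 10 kb of another, in 283 clusters, of which 42 held 3 or more regions and 10 held 4 or more. The longest run was at Ksr1 on chromosome 11, with 7 migratory-only regions of 9 regions in 28.134 kb (79089237 to 79117370). At Septin9, a cytoskeletal septin, 5 of 6 regions in 14.135 kb were migratory-only, at Ralgapa2 5 of 6, at Rcsd1 5 of 7 and at Mreg 5 of 9. At Tcf7, a transcription factor gene best known in T cells, all 4 regions in 10.698 kb were migratory-only, and at Il2ra, which encodes CD25, 4 of 5 in 12.709 kb.

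Most migratory-only regions were of middling strength, and a minority ranked with the strongest peaks. Median percentiles ran from 17.2 to 99.0 with quartiles at 44.0 and 66.6, and 41 regions stood at 90 or more. Among the strongest 20000 peaks of every migratory library were 260 regions (8.22%), and 1380 (43.6%) were among them in none. Slc22a23 held the highest-ranked region (chr13:34237900-34239948, gene body, 99.0). Its percentiles were 99.5, 99.4, 99.5 and 99.4 in migDC1, 95.3 to 98.9 in migDC2 (median 97.6) and 94.8 to 99.4 in DN migDC (median 99.2). The second was a distal region of Gramd1b, a sterol transfer protein gene (97.5), and the third lay at a gene end of Mxd1, which encodes a partner of MAX (97.3). Next came a gene body region of the calcium channel gene Cacna1b (97.3) and an 8137 bp stretch at a gene end of Mreg, the melanosome transport gene melanoregulin (97.2). Regions at Atp6v0a1, a subunit of the vacuolar proton pump (95.7), Dscaml1 (95.6) and Tmem123, a gene used as a marker of migratory DC (94.9), and 2 regions with no gene, on chromosomes 1 and 3 (97.0 and 94.8), completed the 10 strongest. All 10 were called in all 4 germline libraries, and 9 were among the strongest 20000 peaks of all 16 migratory libraries. The exception was Mreg, at 15 of 16, where DN migDC Cre-positive 1 stood at 72.4 and the other DN migDC libraries at 90.6 to 99.5. A region's percentile is that of the strongest peak that called it, and a wide peak can carry signal from a neighbour. The median region width was 515 bp in the weakest strength group and 947 bp in the strongest. How far a high rank reflects width rather than accessibility was not tested. Peaks over 5000 bp made 19 of the 50592 calls, in 8 regions.

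Among genes of costimulation and inhibition, 16 of 296 regions (5.41%) were migratory-only, in 11 of 25 genes, against 3.43% of all regions with a gene. Cd40, which receives the CD40 ligand signal of T cells, had 1 among 14 regions, a distal one at chr2:165048847-165050138. It stood at 82.6, 85.4, 86.6 and 83.7 in the 4 migDC1 libraries, at 88.2 to 93.4 in migDC2 (median 90.05) and at 76.4 to 81.9 in DN migDC (median 78.8), so that the 3 subsets did not overlap and migDC2 was highest. The strongest of 3 distal regions at Cd200, which encodes a ligand of an inhibitory receptor, stood at 76.7, 87.1, 88.0 and 84.8 in migDC1, with medians of 78.5 in migDC2 and 77.2 in DN migDC and overlap between the subsets. Cd274, encoding PD-L1, had 1 of 13 (chr19:29394863-29395769), at 41.1 to 50.03 in migDC1, 26.996 to 49.5 in migDC2 and 17.8 to 59.4 in DN migDC. Pdcd1lg2, encoding PD-L2, had 1 of 29 (median 49.0), and subsets overlapped at both genes. At Slamf1, 4 of 13 regions were migratory-only, from the start shown above to a distal one that ranked at 92.9 to 94.8 in migDC1 and 70.7 to 87.7 in the other libraries. Cd80, Cd86 and Cd83 had none, and 4 of 10, 10 of 31 and 7 of 20 of their regions were called in all 28 floxed libraries. A gene body region of Cd83 missed the rule by 1 migratory library.

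Of chemokine and chemokine receptor regions, 5 of 169 (2.96%) were migratory-only. Ccl22, whose product attracts T cells through CCR4, had 2 distal ones among 10. The one at chr8:94753614-94755175 stood at 51.8, 64.1, 57.9 and 59.5 in migDC1. It stood at 64.3 to 97.3 in migDC2 (median 72.3) and at 32.9 to 49.6 in DN migDC (median 44.0). These percentiles did not overlap, but the highest of migDC1 (64.1) and the lowest of migDC2 (64.3) came from lists of 59296 and 53688 peaks. Percentiles of lists of unlike length are not on the same scale, so this narrow gap does not separate migDC1 from migDC2. The highest value, 97.3 in migDC2 Cre-positive 3, came from a peak of 5608 bp that runs over neighbouring regions. The other region at Ccl22 ranked at 98.9 and 99.0 in migDC2 Cre-positive 1 and 3, where the calling peaks were 3095 and 3077 bp wide, and at 41.5 to 64.9 in the other migratory libraries. Ccr4 and the monocyte-attracting Ccl2 had 1 distal region each, with median percentiles of 61.0 and 81.1. Ccr7 itself and Ccl17 had none, and 5 of 13 and 5 of 6 of their regions were called in all 28 libraries. At Ccr7 the nearest to the rule were distal regions called in 13 migratory and 0 resident and in 15 migratory and 1 resident libraries.

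Genes listed under cytoskeleton and movement held 44 migratory-only regions among 653 (6.74%), in 19 of 31 genes. The list is broad: it holds genes such as Mreg and shares Samsn1 and Fscn1 with the markers of migratory DC. Its share is therefore not that of movement genes alone. Fscn1, encoding fascin, had 1 of 7 (chr5:142949170-142950913, distal), where the 3 subsets overlapped. Its percentiles were 87.6, 88.6, 89.3 and 91.8 in migDC1, 87.4 to 90.6 in migDC2 and 80.1 to 90.03 in DN migDC, and all 4 germline libraries called it. Mreg had 6 of 35, Anxa3, an annexin gene, 5 of 29, and Arhgap31, which turns off Rac1 and Cdc42, 4 of 23, of which the strongest lay at a gene end (median 94.5). Samsn1 had 4, Dock10 and Spred1 had 3 each, and Rac1 had 1.

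Interferon-γ-induced genes had 16 migratory-only regions of 175 (9.14%), in 10 of 28 genes with regions, and genes of the interferon-γ pathway 11 of 247 (4.45%), in 7 of 17. Irf1, a transcription factor induced by interferon-γ, had 3 distal regions between 30264 and 40196 bp from the gene, where the other 20 of its regions did not meet the rule. The first, chr11:53808638-53809713, stood at 89.77, 90.04, 89.99 and 88.83 in migDC1, at 74.1 to 81.9 in migDC2 (median 77.4) and at 75.6 to 82.6 in DN migDC (median 76.5). All 4 migDC1 libraries lay above the 12 others. The farthest was the strongest (median 87.6), with overlap between migDC1 and migDC2. Wars, the tryptophanyl-tRNA synthetase gene, had 2 regions in all and both were migratory-only. The one in its gene body (chr12:108864576-108865784) stood at 96.3, 95.9, 95.5 and 95.5 in migDC1, at 88.5 to 92.4 in migDC2 and at 85.9 to 89.3 in DN migDC. Nlrc5, the activator of MHC class I genes, had 3 of 17, and Ciita, the activator of MHC class II genes, 2 of 21. Irf2, a repressor related to Irf1, and Pias1 had 2 each, Jak1, Jak2, Ptpn1 and the feedback gene Socs2 had 1 each, and none of the 16 regions at Ifngr1 met the rule. MHC class II presentation genes other than Ciita had none in 18 genes, and MHC class I presentation genes had 4 of 82 (4.88%), 3 at Nlrc5 and 1 at H2-T23.

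Tolerance-associated genes had 23 of 235 (9.79%), in 14 of 23 genes with regions. Il2ra had 5 of 14, all in the gene body, with medians from 25.3 to 70.0, and Cd200 3 of 8. Aldh1a2, the retinaldehyde dehydrogenase of retinoic acid synthesis, had 1 of 5, a distal region with a median of 44.8. The lists of tolerance-associated, interferon-γ-induced and costimulatory genes share genes such as Cd274 and are not independent. They were drawn up with earlier results of these data known.

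Among transcription factors of DC, 27 of 727 regions (3.71%) were migratory-only, close to the 3.43% of all regions. Runx2 had 6 of 48 and Zfp366, which encodes DC-SCRIPT, 5 of 35, the strongest a distal one with a median of 88.0. Etv6 had 3 of 95 (median 79.2) and Irf8 1 of 33, a distal region (chr8:120707292-120708389) at 84.5 to 86.5 in migDC1, 78.5 to 84.7 in migDC2 and 70.3 to 80.4 in DN migDC. Irf4 had none of 14. NF-kB factors and regulators had 14 of 357 (3.92%), among them Traf3, Tnip1 and Ikbkb with 2 each. Relb had none of 5, and its gene body region closest to the rule was called in 15 migratory and 0 resident libraries.

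Cytokine and cytokine receptor genes had 19 of 349 (5.44%). Il21r, the interleukin-21 receptor gene, had 1 of 19, a gene body region of 3639 bp that ranked at 92.8 to 96.9 in migDC1, 90.06 to 96.7 in migDC2 and 83.1 to 90.02 in DN migDC. Il12b, encoding the p40 chain, had 1 of 18 (median 71.3), Il12a 2 of 11 and Il15 1 of 13 (median 74.6). Lif had 3 of 14, all distal. Of survival and death genes, Bcl2l1, encoding the survival factor Bcl-xL, had 3 of 18, and the death receptor gene Fas 1 of 7. Pattern recognition receptors had 4 of 147 (2.72%), 1 each at Tlr1, Mrc1, Nod2 and Ifih1.

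**Figure D3:**
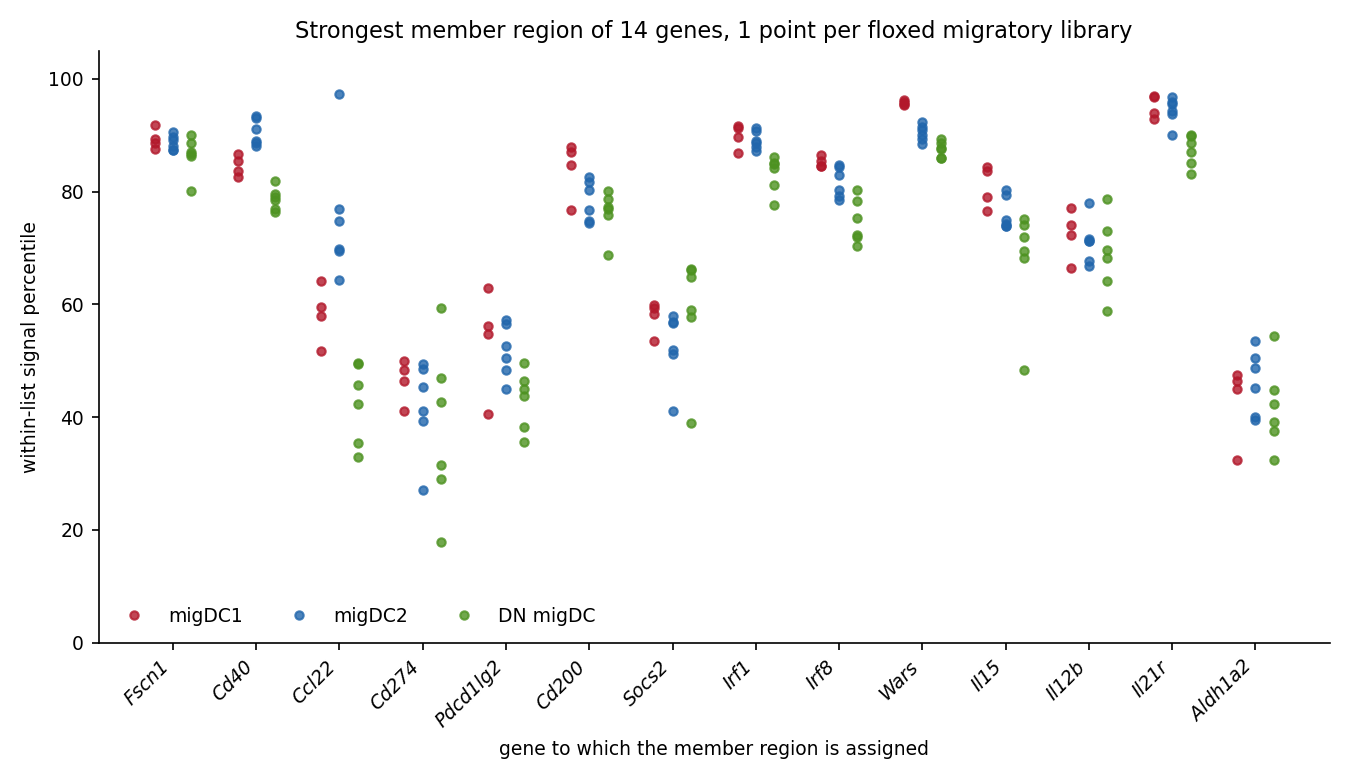
Within-list signal percentile (y axis, 100 = strongest peak) of the strongest migratory-only region of 14 genes (x axis), with 1 point per floxed migratory library in red (migDC1, n = 4), blue (migDC2, n = 6) or green (DN migDC, n = 6). Points of the 3 subsets are separate at Cd40 and mixed at Fscn1. At Ccl22 DN migDC lies lowest, and only 64.1 against 64.3 parts migDC1 from migDC2. The Ccl22 point at 97.3 is the wide peak of migDC2 Cre-positive 3.

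Marker genes were checked against the subset labels. Regions of the cDC1 gene Wdfy4 were called 38 to 55 times of 57 per cDC1 library and 4 to 15 times per cDC2 library, and 14 to 17 times in migDC1 against 9 to 12 in the other migratory subsets. Over the whole cDC1 marker list, a median of 73.6% of regions was called in cDC1, 32.7% in cDC2, 55.8% in migDC1 and 41.2% in migDC2. For the cDC2 marker list the medians were 62.6% in migDC2 and 43.5% in migDC1, but 52.3% in cDC2 and 54.2% in cDC1, so as a whole it did not mark resident cDC2. Sirpa, of that list, had 13 to 16 of 18 regions called in migDC2 and 5 to 10 in migDC1, and Itgam a median of 14.5 of 21 in cDC1 and 12.5 in cDC2. Markers of migratory DC had 14 migratory-only regions of 179 (7.82%), those of cDC1 2 of 182 (1.10%) and of cDC2 2 of 107 (1.87%). Of the lists for other cells, T cell markers had 7 of 65 (10.8%), 4 of them at Tcf7, plasmacytoid DC markers 8 of 92 (8.70%), 6 of them at Runx2, and B cell markers 1 of 58 (1.72%). NK cell and ILC, monocyte and macrophage, neutrophil and mast cell and basophil markers had 1 each, Langerhans cell and skin DC markers 4 of 117 (3.42%), and stromal and epithelial markers 0 of 57. T cell marker regions were called at 41.5% to 78.5% in migratory and 24.6% to 66.2% in resident libraries, B cell ones at 25.9% to 79.3% and 12.1% to 43.1%, and plasmacytoid DC ones at 48.9% to 90.2% and 33.7% to 53.3%. All regions were called at 45.3% to 73.8% and 39.9% to 71.5%. The part of other cells in the migratory-only regions was not tested.

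The 4 germline migDC2 libraries took no part in the membership calls, although their lists were among the 32 that set the consensus regions and their borders. WT 1 called 70.4% of the migratory-only regions, WT 2 73.6%, KO 1 62.5% and KO 2 87.0%, in the order of their list lengths of 35262, 35997, 32088 and 41759 autosomal peaks. The same libraries called 36.8%, 37.8%, 32.8% and 44.4% of all regions. All 4 called 1766 migratory-only regions (55.9%), against 31.1% of all regions and 82.1% of the shared regions, and none called 334 (10.6%). None of the 79 resident-only regions was called in any of them. Cut to the 32088 strongest peaks each, the 4 libraries called 63.1% of the migratory-only regions on average. The share grew with strength: it ran from 12.4% to 59.3% of the weakest strength group, 52.0% to 90% of the next, 86.8% to 98.9% of the one after and 98.9% to 100% of the strongest. Shared regions of the same strengths were called at 17.8% to 69.8%, 60.6% to 92.8%, 89.6% to 99.1% and 99.6% to 99.97%. In every group but the strongest, each of the 4 libraries called fewer of the migratory-only than of the shared regions. In the strongest group WT 1 called 100% against 99.94%, and the other libraries again called fewer. With 2 WT against 2 KO libraries no difference by genotype can pass an exact test, and the KO libraries held both the lowest and the highest share.

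**Figure D4:**
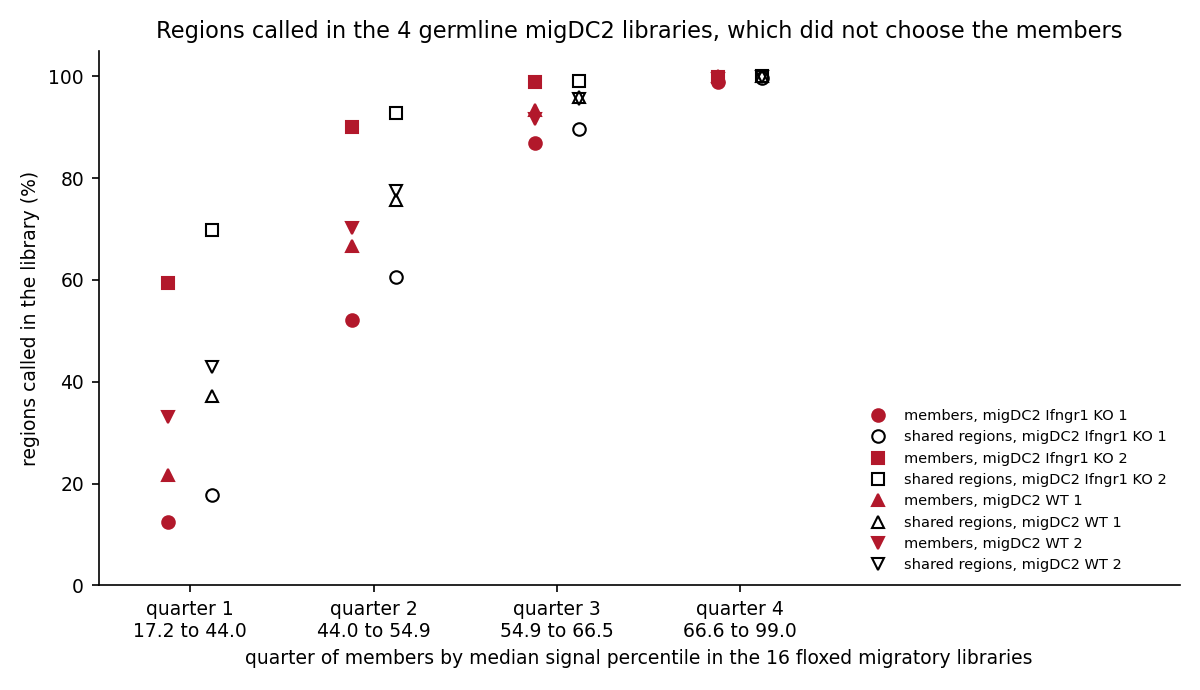
Share of regions called (y axis, percent) in each of the 4 germline migDC2 libraries, for migratory-only regions (filled) and shared regions (open) within the same range of median percentile (x axis: the 4 strength groups of the migratory-only regions). Members of the strongest group were called at 98.9% to 100%, those of the weakest at 12.4% to 59.3%.

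Regions chosen in 1 genotype were also looked up in the other. Chosen in the Cre-negative libraries alone, 4093 regions met the rule, and the 8 Cre-positive migratory libraries called 90.1% to 99.6% of them (median 98.7%), the 6 Cre-positive resident libraries 0.122% to 4.08%. Chosen in the Cre-positive libraries, 4210 regions were called at 86.2% to 99.98% in Cre-negative migratory and 0.0713% to 3.42% in Cre-negative resident libraries. Shares were lower when regions chosen in 1 lineage were looked up in the others. Of 6688 regions chosen from migDC1 and cDC1, the migDC2 and DN migDC libraries called 74.4% to 88.9% and cDC2 libraries 4.05% to 11.8%. Of 8394 chosen from migDC2 and cDC2, the migDC1 and DN migDC libraries called 67.2% to 94.2% and cDC1 libraries 10.1% to 20.2%. Beside these shares, floxed migratory libraries called 45.3% to 73.8% of all regions and floxed resident ones 39.9% to 71.5%. Migratory state and title style were tied in these libraries: all 12 resident libraries have plain numbered titles, as do 4 migratory ones, and 12 migratory ones have lettered titles. With the plain-titled libraries alone, 5528 regions were called in all 4 migratory and no resident library. These 4 hold no migDC1 library, so this count is not of the same rule.

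Within the migratory libraries, strength was compared by asking which regions stayed in lists cut to the same number of peaks. The rule did not contrast these libraries with one another, but it required a call in each of their full lists. Of the 1009 regions that missed only 1 migratory library, with no resident call, 382 missed migDC1 Cre-negative 1 and 289 DN migDC Cre-positive 1. How far this choice shapes the comparisons below was not tested. All lists were cut to their strongest 44263 autosomal peaks, the length of the shortest (migDC1 Cre-negative 1), and calls were compared per region with a two-sided exact conditional test and Benjamini-Hochberg adjustment over all regions tested. Of the 3162 regions, 1869 (59.1%) stayed in all 16 cut lists. By genotype no region passed the threshold. Of 518 migratory-only regions tested between Cre-positive and Cre-negative libraries (8 each), 0 were higher and 0 lower, against 0% and 0% of 19750 regions (exact conditional test, smallest adjusted p = 1). At an unadjusted p under 0.05 there was 1, a region at a gene end of the stress-response factor gene Atf5, kept in 3 of 8 Cre-positive and 8 of 8 Cre-negative libraries (exact p = 0.02), and 63 of all regions. With strongest-20000 lists 0 of 901 were higher and 0 lower (0% and 0% of 7974 regions). This test could call little: at the equal length even full separation (exact p = 0.000833) passes only if about 329 regions reach it together. The uncut list is a Cre-negative one that held every migratory-only region by the rule, so none could separate fully as higher in Cre-positive libraries.

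Between migDC1 and migDC2, 18 of 198 migratory-only regions tested (9.09%) were higher in migDC1 and 0 lower, against 15.1% and 11.3% of 13254 regions. The list of migDC1 Cre-negative 1 was not cut at this length and held every migratory-only region by the rule, so none of them could reach a called lower value. The 18 had the smallest exact p the design gives (0.01, adjusted p = 0.038), which passes only when some 2651 regions reach it together. Cflar, the gene of the caspase-8 inhibitor c-FLIP, was among them. Its gene body region (chr1:58749115-58749500) stood at 47.8, 62.2, 58.4 and 37.8 in migDC1 and at 1.88 to 23.9 in migDC2 (median 10.8). A gene body region of Celf2, an RNA-binding protein gene, stood at 64.6 to 70.8 in migDC1, 4.0 to 36.9 in migDC2 and 40.0 to 58.7 in DN migDC. Regions of Nol4l, Ubl4b and Padi2 and 1 without a gene, on chromosome 4, were also kept in 4 of 4 migDC1 and 0 of 6 migDC2 libraries. Percentiles of the subsets overlapped at Nol4l and Padi2. No migratory-only region passed this test with lettered titles alone, where 4 libraries stand against 4 and the smallest p is 0.0556, or without any 1 of the 10 libraries.

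In all these comparisons the migratory-only regions stayed those chosen from the full lists of the same libraries. The strongest 20000 peaks of each list, a length at which every list was cut, gave more calls. At that length 37.8% to 39.7% of the migratory-only regions were kept in migDC1, 23.02% to 31.1% in migDC2 and 12.4% to 28.7% in DN migDC, so every migDC1 library lay above every other. The shared regions were kept at 57.6% to 61.3% in the same 16 libraries. For the migratory-only regions, plain-titled libraries had the lowest shares of their subset, 23.02% and 24.5% in migDC2 and 19.2% and 12.4% in DN migDC. All migDC1 libraries have lettered titles, and they also lay above every lettered library of migDC2 and DN migDC. How far title style widens the ranges of these subsets was not tested. Of 661 migratory-only regions tested between migDC1 and migDC2, 229 (34.6%) were higher in migDC1 and 27 (4.08%) lower, against 17.3% and 10.7% of 5468 regions (exact conditional test, adjusted p = 0.0357). In 9 of the 10 fits that left out 1 library, no migratory-only region passed. The other fit, without migDC2 Cre-negative 2, gave 248 and 28. Without migDC1 Cre-negative 1, 421 of 569 migratory-only regions tested (74.0%) were kept more often in migDC1, against 45.9% of all regions tested, and with lettered titles alone 412 of 561 (73.4%) against 46.4%. In both fits the regions were still those chosen with migDC1 Cre-negative 1. These shares therefore do not show what a choice made without that library would give.

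**Figure D5:**
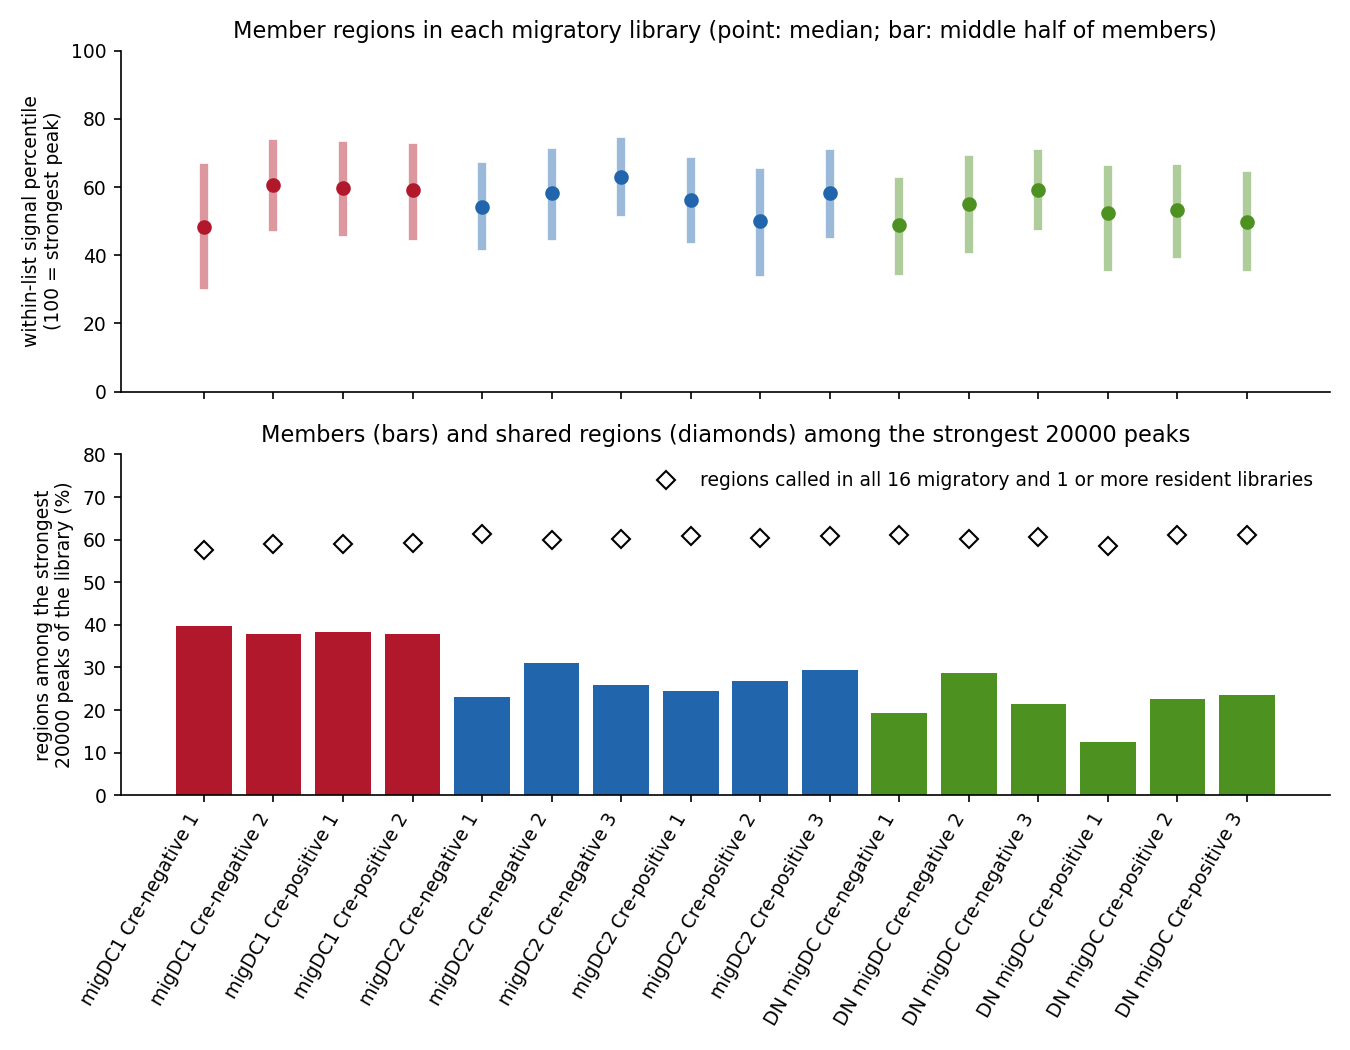
Top, within-list signal percentile (y axis) of migratory-only regions in each floxed migratory library (x axis), as median (point) and lower to upper quartile (bar). Bottom, share of regions among the strongest 20000 peaks of the library (y axis, percent) for migratory-only regions (bars) and shared regions (diamonds). Bars stand at 37.8% to 39.7% in migDC1 and at most 31.1% elsewhere, while diamonds stay between 57.6% and 61.3%. The lowest bars of migDC2 and of DN migDC are those of plain-titled libraries, and migDC1 has lettered titles only.

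List genes with a region higher in migDC1 than in migDC2 at that length were Dock2, Rac1, Tiam1 and Tbc1d4 of the movement list, Flt3, Il1r1 and Il27 of the cytokine list, and Ccr4, Slamf1, Tnip1, H2-T23 and Tcf7. Dock2, an activator of Rac in moving leukocytes, had a gene body region (chr11:34514975-34515892) at 79.2, 81.7, 78.7 and 75.7 in migDC1, at 33.9 to 55.4 in migDC2 (median 38.4) and at 55.2 to 74.4 in DN migDC (median 63.6). Flt3, the receptor for the DC growth factor FLT3 ligand, had one at 75.1 to 79.7 in migDC1 and 40.8 to 61.3 in migDC2. Tcf7 had one at 70.5 to 75.4 against 9.4 to 56.3, and Tiam1, another Rac activator, one at 66.5 to 79.8 against 41.6 to 62.4 and 10.5 to 51.4 in DN migDC. Vsir, which encodes the inhibitory ligand VISTA, was the only list gene in the other direction. Its region at chr10:60373913-60374753 stood at 21.8, 36.5, 29.2 and 34.4 in migDC1, at 68.9 to 78.2 in migDC2 and at 15.01 to 43.6 in DN migDC, so that migDC2 lay alone. At Tnip1, Rac1, Il1r1, Il27 and H2-T23 the ranges of migDC1 and migDC2 overlapped. The Tnip1 region stood at 65.8 to 99.8 in migDC1, and its top value (99.8 in migDC1 Cre-positive 2) came from a 4020 bp peak.

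No region passed the threshold between DN migDC and either of the other subsets. Against migDC2, 0 of 457 migratory-only regions were higher and 0 lower (0% and 0% of 13129 regions, smallest adjusted p = 0.141 by the exact conditional test). At an unadjusted p under 0.05, 7 were higher and 30 lower, together 8.10% of those tested against 11.1% of all regions tested. Regions of Itpkb, which makes an inositol phosphate messenger, the integrin gene Itgav, Lpar3, Cacng6 and Sbf2 were kept in 0 of 6 DN migDC and 6 of 6 migDC2 libraries, and regions of Celf2, Ubl4b and the integrin gene Itgb5 in 6 of 6 and 0 of 6. The Itgav region (chr2:83729360-83729880) ranked at 12.8 to 36.0 in DN migDC and from 51.5 upward in migDC2. Against migDC1, 0 of 348 were higher and 0 lower (0% and 0% of 13471 regions, smallest adjusted p = 0.0594 by the same exact test), with 4 higher and 16 lower at an unadjusted p under 0.05, together 5.75% against 27.7% of all regions tested. Full separation there (exact p = 0.01) passes only if about 2694 regions reach it together. Without genotype strata 12 of the 348 (3.45%) were lower in DN migDC and 0 higher, against 11.0% and 5.86% of all regions tested. With the strongest 20000 peaks, 298 of 682 were lower and 6 higher at an unadjusted p under 0.05 and none passed (smallest adjusted p = 0.0502 by the exact test), where 1711 of 5526 regions had such a p in either direction. Against migDC2 at that length 70 of 519 were lower and 17 higher, of 534 such regions among 5195, and none passed (exact test, smallest adjusted p = 0.151). At the equal length, the 4 regions higher in DN migDC than in migDC1 before adjustment included a gene body region of Srl and a distal one of Dscam. Each was kept in 6 of 6 DN migDC and 1 of 4 migDC1 libraries, that one being the uncut list. The Srl region stood at 69.4 to 87.3 in DN migDC and had a median of 7.8 in migDC1, and the Dscam region at 60.2 to 85.2 and 5.86. At the equal length 31.7% of the migratory-only regions tested were kept more often in DN migDC than in migDC2, against 40.3% of all regions tested. Against migDC1 these shares were 8.33% and 51.7%, the first being limited by the uncut migDC1 list, and with the strongest 20000 peaks, where all lists were cut, 10.9% and 51.2%. DN migDC Cre-positive 1, with the longest list, kept 71.1% of the migratory-only regions at the equal length, where the other 15 libraries kept 89.5% to 100%.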

How the data were processed

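Omni-ATAC-seq, which marks open chromatin by transposase insertion, was performed on 32 libraries of sorted mouse DC. Bowtie2, Genrich, deepTools and build mm10 are named in the submitters' processing notes; versions, settings and thresholds: not given in the sources used here. Per library, the authors deposited 1 Genrich peak list. Its signal column, as deposited, was used as the strength of a peak and was not corrected for peak width. Its p column gives −log10 p-values, as deposited, which were not tested here.

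Regions, calls and percentiles were computed from the lists with Python 3.11.15, numpy 2.4.6 and pandas 2.3.3. Signal was ranked within each list, since no scale shared by the lists was given. Among migratory libraries, calls in lists cut to 44263 peaks were compared by an exact conditional test, stratified by subset (for genotype) or genotype (for subsets), over regions with at least 3 libraries calling them and at least 3 not, with Benjamini-Hochberg adjustment and a threshold of 0.05. The test was checked on simulated data. Genes within 50 kb came from RefSeq (GRCm38.p6). Genes named are those with most migratory-only regions, overall and up to 3 per list, those of the 10 strongest regions, those with the smallest p in a comparison and a fixed set of DC genes; other genes named beside a count were chosen after their values were seen. The migratory-only regions, lists and tests were chosen with earlier results of these data known. Alternatives varied overlap, list number, width, signal, list length, strata, title style and single libraries. Chromosomes X and Y were left out. The list of survival and death genes is reported in part, and the rest of it is not reported here.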

Additional observations from a re-analysis of the deposited data

Results flagged for a closer look

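In migDC1 Cre-negative 1, the shortest migratory list, the migratory-only regions had a median percentile of 48.2, far from the other 3 migDC1 libraries (59.1 to 60.7). Regions called in all 28 floxed libraries also ranked lower there, at a median of 67.6 against 75.8 to 76.7. Its strongest 20000 peaks held 39.7% of the migratory-only regions, against 37.8% to 38.3% in the other 3. At the equal list length 100% of them stayed, which is fixed because that list was not cut. The same library ranked apart within migDC1 at the strong regions of Mreg (83.9) and Gramd1b (94.6). DN migDC Cre-positive 1, the longest list, stood apart from the other 5 DN migDC libraries in the share of migratory-only regions kept at the equal length (71.1%) and at the regions of Mreg (72.4), Gramd1b (86.4) and Slc22a23 (94.8). Each was picked out because 1 library lay far from the rest of its group; 47 groups of values were examined, and chance picks out about 1 in 20. On the X chromosome, which the comparisons left out, 50 of 1708 regions (2.93%) met the same rule.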

How the results depend on the processing

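No paired analysis was possible because the replicate numbers are names given in accession order and pair no samples. The number of migratory-only regions was 2057 when the 28 floxed lists were cut to equal length and 3162 to 3544 when 1 library was left out. It was 5528 with plain numbered titles alone, which leave 4 migratory libraries and none of migDC1. Counts per gene also changed. Those at Cd274, Pdcd1lg2, Aldh1a2, Socs2, Il15, Il21r, Nlrc5, Ciita, Traf3, Fas and H2-T23 fell to 0 in at least 1 alternative. None of these did so when 1 library was left out. Over the other alternatives Irf1 kept 2 to 3 regions, Cd40 and Ccl22 1 to 3 each, Wars 2 and Fscn1 1. The mean share called in the germline libraries was 63.1% at equal length and 68.8% to 77.0% without 1 of those libraries. Between migDC1 and migDC2 the count higher in migDC1 was 229 (27 lower) with the strongest 20000 peaks. It was 0 with full lists, which hold every migratory-only region by the rule, 0 with lettered titles (4 libraries against 4, smallest exact p 0.0556), 0 when 1 library with and 1 without a call sufficed for testing, 0 to 0 without 1 library, and 0 with lettered titles and the strongest 20000 together. With the strongest 20000 and 1 library left out it was 0 to 248, with 0 to 28 lower; this setting and the one before it were added after the data were seen. Without strata 12 regions were lower in DN migDC than in migDC1. No value reversed. For the other changes the cause was not tested. A region just under a list's threshold cannot be told apart from a closed one.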
